A study of Rattus norvegicus with 10 samples.

Results

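The genes described here encode chemokines, interleukins, cytokines of the tumour necrosis factor (TNF) family and their receptors, in rat pancreatic islets that received the Nkx6.1 adenovirus or a control virus. They were chosen by symbol in the platform annotation: symbols that start with Cxcl, Cxcr, Tnfsf or Tnfrsf, that start with Ccl, Ccr or Il followed by a digit, or the symbol Tnf, without Cxcl10. Of 106 genes with such a symbol, 79 had a value in at least 3 samples of each group and were tested, among 9974 genes tested in all. The other 27 had too few values. Platform names were updated where RefSeq has a newer one, so that Il8ra, Il8rb and Cxcl5 of the platform appear as Cxcr1, Cxcr2 and Cxcl6.

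The islets came from male Sprague-Dawley rats and were kept at 8 mM glucose. In the Nkx6.1 group they received an adenovirus (AdCMV-Nkx6.1, driven by the cytomegalovirus promoter) that carries hamster Nkx6.1, a β-cell transcription factor. In the bGAL group they received the matching virus with β-galactosidase, an enzyme used as the control cargo, so both groups carry adenovirus. Exposure at 5E9 particles per ml lasted 18 h and culture went on for 60 h, with about 200 islets per condition pooled into 1 sample and 5 samples per group from independent isolations. Each sample, in Cy5, shared a two-colour oligonucleotide array with a Cy3-labelled rat reference RNA, and precision is limited by having 5 arrays per group.

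Chemokines are small secreted proteins that draw leukocytes along a gradient through receptors coupled to G proteins, and the CXC and CC classes differ in the spacing of their first cysteines. Interleukins act through paired receptor chains, those of the interleukin 1 family by way of NF-κB and most others by way of JAK kinases and STAT factors. TNF family ligands bind receptors that recruit TRAF adaptors or death domain proteins. In islets this system is known for inflammatory damage to β cells, and islet cells themselves release chemokines such as Ccl2 when stimulated with interleukin 1.

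A value is the log2 ratio of the islet sample to the reference after each probe was set to a median of 0 over the 10 samples. It shows how samples differ for a gene but not how abundant its transcript is. That a positive value means more in islets than in the reference is likely, though the labels do not say so, and with the opposite direction every sign given here would turn. By missing values the arrays formed 2 sets. In array set 1 (Nkx6.1 replicate 1 and bGAL replicates 1, 2, 3 and 5), 27.2% to 32.5% of probes had no value. In array set 2 (Nkx6.1 replicates 2 to 5 and bGAL replicate 4) the range was 0.815% to 9.12%. The sets therefore largely follow the groups, and the part of the set in a difference cannot be fully told apart from the group. Nkx6.1 replicate 2 had the widest spread (interquartile range 1.09, where the other 9 samples had 0.347 to 0.58). As hormone levels cannot be read from centred values, the tissue label could not be checked by level, although all 11 islet endocrine genes on the marker list had a tested value and none was at a floor.

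The floor is central to this gene family. A probe is called floored here when 3 or more samples hold the same value to 4 decimals, as was so in 46 of the 79 genes, 58.2% against 40.7% of all genes tested. Of the 82 probes of these genes, 38 were measured off the floor in Nkx6.1 replicate 1, 67 in Nkx6.1 replicate 2, 81 in each of Nkx6.1 replicates 3 and 4, and 82 in Nkx6.1 replicate 5. In the bGAL samples the numbers were 39, 41, 36, 81 and 50 for replicates 1 to 5. Only bGAL replicate 4 among the controls was thus measured nearly throughout. For a floored gene, 4 of the 5 bGAL values are often one and the same number, and its group difference mostly sets the floor against the off-floor values of array set 2.

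**Figure D1:**
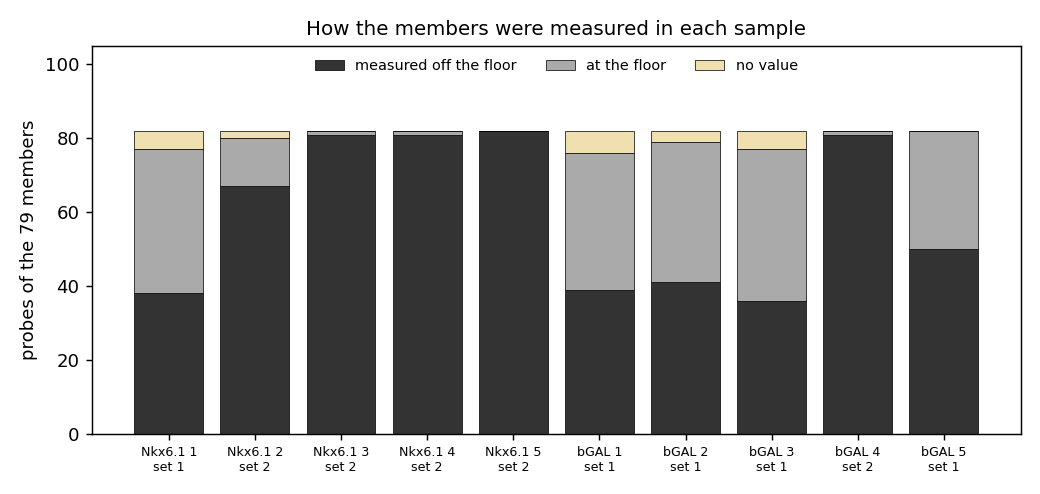
Number of probes (vertical axis, of the 82 probes of the 79 tested genes) that were measured off the floor, at the floor or without a value in each sample, with the array set under each name. The 5 samples of array set 1 had 32 to 41 probes at the floor, and those of array set 2 had 0 to 13.

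None of the 79 genes passed the threshold in the comparison of Nkx6.1 with bGAL (limma, Benjamini-Hochberg adjusted p of 0.05 over all genes). Over all genes 15 passed, a share of 0.15%. At an unadjusted p under 0.05 there were 9 genes of the family, 7 higher and 2 lower with the Nkx6.1 virus. That is 11.4%, against 9.65% of all genes (4.54% higher and 5.1% lower). The share is near the background and is not a result about the family. With a term for the array set it was 8 of 79, against 5.07% of all genes. When each array was weighted by how closely it followed the fit of its own group, 4 genes of the family passed (Tnfrsf12a, Tnfrsf17, Ccl2 and Cxcr1). Of all genes, 5.79% passed. In that fit Nkx6.1 replicate 2 had a weight of 0.105. Low weights also went to bGAL replicate 5 (0.437), Nkx6.1 replicate 1 (0.597) and bGAL replicate 4 (0.647). Nkx6.1 replicate 1 and bGAL replicate 4 were each alone of their group in their array set, and bGAL replicate 5 was not. Nkx6.1 replicates 3 to 5 had 2.68, 1.92 and 2.11, and bGAL replicates 1 to 3 had 1.37, 2.5 and 1.52. The weighted fit thus mainly sets Nkx6.1 samples of array set 2 against bGAL samples of array set 1. The log2 differences ran from −2.03 to 2.97 with a median of −0.1, beside −0.052 over all genes, and 36 of 79 were above 0 (45.6%, against 45.5% of all genes).

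Over all samples, the floored and the other genes differed in their direction. Among the 33 genes with no floored probe the median difference was 0.28 and 22 were higher with the Nkx6.1 virus (66.7%). All genes with no floored probe had a median of −0.066, and 44.6% of them were higher. Of these 33 genes, 8 had an unadjusted p under 0.05 (24.2%, 7 higher and 1 lower), against 12.6% of all genes with no floored probe (6.12% higher and 6.52% lower). The adjusted threshold was passed by 0.253% of all genes with no floored probe and by 0 of the 33. Among the 46 with a floored probe the median was −0.26, 14 were higher (30.4%) and 1 had an unadjusted p under 0.05 (2.17%). All 4055 genes with a floored probe had a median of −0.036, 46.8% higher and 5.28% with such a p. In 73 genes both groups had 5 values, and in 3 of them, Tnfrsf12a, Cxcl2 and Il1r2, the lowest Nkx6.1 sample was above the highest bGAL sample. Over all genes, 3.81% had groups without overlap, 1.99% in this order and 1.82% in the opposite one, which 0 genes of the family showed. An exact permutation test gives such a gene a two-sided p of 0.0079, the smallest possible with 5 samples per group.

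**Figure D2:**
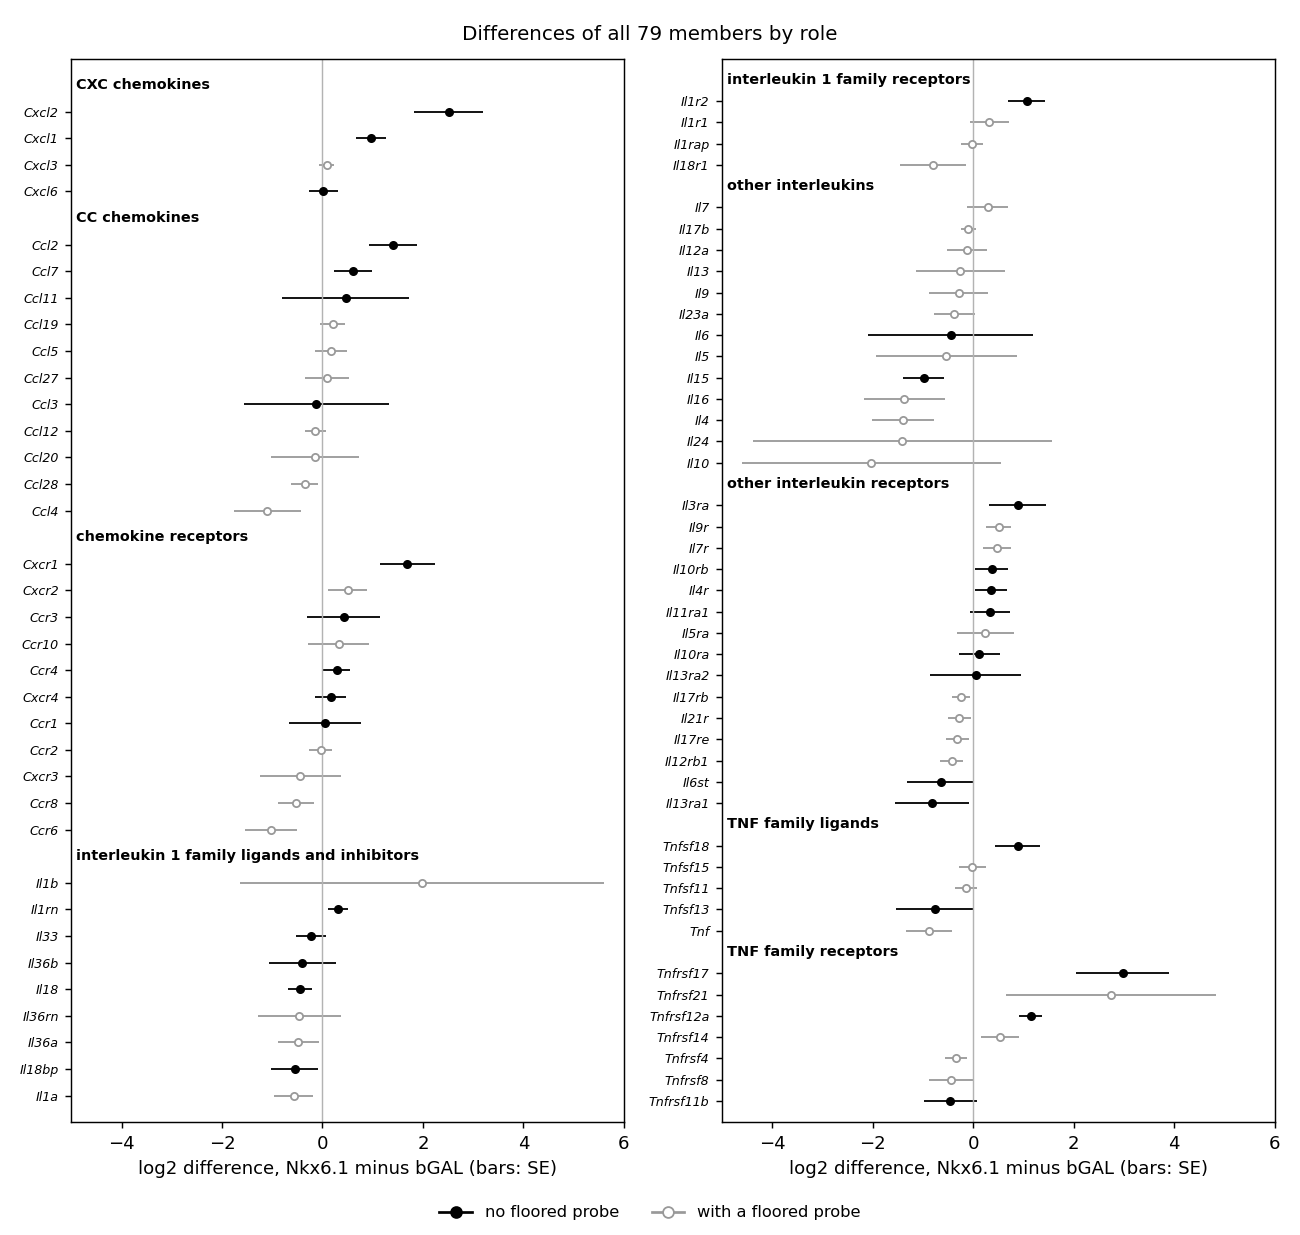
Log2 difference, Nkx6.1 minus bGAL (horizontal axis, points with limma SE as bars), for all 79 genes grouped by role. Filled points have no floored probe and open grey points have one. Cxcl2, Ccl2, Cxcr1, Il1r2 and Tnfrsf17 stand to the right within their roles, and most interleukins stand to the left of 0.

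Among the 4 CXC ligands, Cxcl2 and Cxcl1 had positive differences within both array sets, and neither passed the threshold. Cxcl2, a neutrophil attractant induced by NF-κB, stood at 0.16, 1.07, 0.019, 1.57 and 1.51 in Nkx6.1 replicates 1 to 5, against −3.55, −0.019, −1.84, −0.35 and −2.44 in bGAL replicates 1 to 5. The groups did not overlap, though the lowest Nkx6.1 and the highest bGAL sample were close. The difference of 2.51 ± 0.68 (limma estimate ± SE, 5.69-fold) had an unadjusted p of 0.0042 and an adjusted p of 0.31 over all genes. Within array sets 1 and 2 it was 2.12 and 1.39. Its neighbour Cxcl1, which acts on the same receptor, stood at 0.40, 0.93, −0.17, 0.57 and 0.27 in Nkx6.1 samples, against −0.18, −0.86, 0.17, −0.78 and −1.21 in bGAL samples. Of the Nkx6.1 samples, 4 exceeded the highest bGAL sample and replicate 3 did not. The Cxcl1 difference was 0.97 ± 0.30 (SE, limma adjusted p = 0.39), with 0.92 and 1.18 within array sets 1 and 2. The other CXC ligands differed less over all samples: Cxcl6 by 0.012 ± 0.29 with 4 and 3 values per group, and Cxcl3 by 0.082 with 4 samples of each group at the floor. In Cxcl6, bGAL replicates 2 and 5 shared a value of 0. Within array set 2, where bGAL replicate 4 was the only control, Cxcl6 differed by 0.59 and Cxcl3 by 0.45.

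Cxcl1 and Cxcl2 lie close together on rat chromosome 14. Their upstream sequences are shown because the differences of both were positive in the whole comparison and within each array set, and because they share a motif. Each is the 250 bases before the transcription start from RefSeq (GRCr8, minus strand, printed 5′ to 3′), Cxcl1 at chr14:17479322-17479571 and Cxcl2 at chr14:17467256-17467505. Capitals mark each match to GGGNNTTTCC, a form of the NF-κB site, searched on both strands.
Cxcl1: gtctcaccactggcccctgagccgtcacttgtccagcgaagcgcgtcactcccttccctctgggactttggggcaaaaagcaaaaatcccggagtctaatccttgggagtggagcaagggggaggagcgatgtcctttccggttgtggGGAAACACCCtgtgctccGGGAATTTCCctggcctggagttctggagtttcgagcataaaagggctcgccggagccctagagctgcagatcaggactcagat
Cxcl2: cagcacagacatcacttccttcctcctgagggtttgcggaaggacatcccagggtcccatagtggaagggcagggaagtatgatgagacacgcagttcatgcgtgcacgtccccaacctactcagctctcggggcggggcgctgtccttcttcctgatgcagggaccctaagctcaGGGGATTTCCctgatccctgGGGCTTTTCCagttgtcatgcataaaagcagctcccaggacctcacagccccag
The first match in the Cxcl1 sequence is on the opposite strand, and the other 3 matches are on the strand shown. The motif occurred in 1.3% of the 33469 upstream sequences in the table and in 9 of the 62 found for 60 of the 79 genes. The 9 belonged to Cxcl1, Cxcl2, Cxcl6, Ccl20, Ccr3, Il1rn, Il6, Il9 and Tnfrsf4, whose log2 differences ran from −0.45 for Il6 to 2.51 for Cxcl2. A match is a description of the letters and not of binding in these islets.

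Among the 11 CC chemokines, 6 were above 0 and 5 below, with a median difference of 0.089. Ccl2, which attracts monocytes, stood at 2.12, −0.61, 0.86, 0.99 and 0.72 in Nkx6.1 samples, against 0.31, −0.31, −0.87, −1.02 and −1.09 in bGAL samples. All Nkx6.1 samples but replicate 2 lay above every bGAL sample. The difference was 1.41 ± 0.48 (SE, 2.66-fold, limma unadjusted p = 0.015, adjusted p = 0.44), 2.61 within array set 1 and 1.51 within array set 2. Ccl7, a close relative of Ccl2, differed by 0.60 ± 0.38 in the whole comparison and by −0.16 within array set 2. Ccl5, which attracts T cells and monocytes, differed by 0.17 with 4 Nkx6.1 and 3 bGAL values. Ccl20, the ligand of Ccr6, was at its floor of 0.045 in bGAL replicates 1, 2, 3 and 5 and at −4.12 in bGAL replicate 4, and its difference was −0.15 ± 0.87. Ccl3 and Ccl11 spread widely in both groups, with SE of 1.45 and 1.26, and in each of them Nkx6.1 replicate 1 and bGAL replicate 3 held one shared value (3.56 and 3.29).

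**Figure D3:**
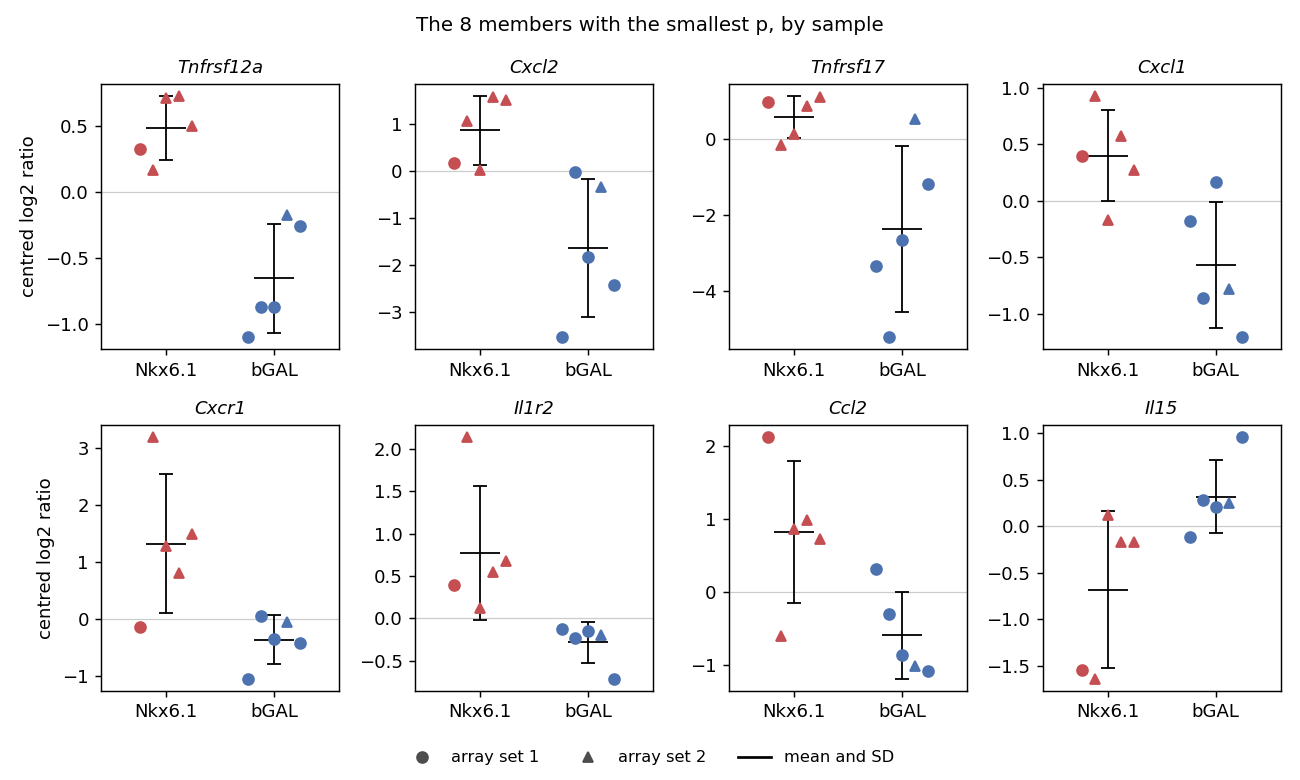
Centred log2 ratio (vertical axes) of the 8 genes with the smallest p, 1 point per sample, circles for array set 1 and triangles for array set 2, with mean and SD over 5 samples. Tnfrsf12a, Cxcl2 and Il1r2 show no overlap between Nkx6.1 and bGAL, and Il15 is the only one of the 8 that is lower with the Nkx6.1 virus.

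Of the 11 chemokine receptors, 7 were above 0 and the median difference was 0.16. Cxcr1, a neutrophil receptor for CXC chemokines, stood at −0.15, 3.20, 1.28, 0.80 and 1.5 in Nkx6.1 samples, against −1.05, 0.052, −0.36, −0.052 and −0.42 in bGAL samples. Replicate 1, the Nkx6.1 sample of array set 1, lay inside the bGAL range, and the other 4 lay above it. The difference was 1.69 ± 0.54 (SE, limma unadjusted p = 0.011, adjusted p = 0.42), 0.30 within array set 1 and 1.75 within array set 2. Cxcr2, the other receptor of this pair, was at its floor in 5 samples and differed by 0.50 ± 0.39. Cxcr4, the receptor for Cxcl12, differed by 0.16 ± 0.30, and Ccr2, the Ccl2 receptor, by −0.039 ± 0.23 with 6 samples at the floor. Ccr6 had a difference of −1.02 ± 0.52 (limma adjusted p = 0.54), and its sign differed between array set 1 (−0.29) and array set 2 (0.36).

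The interleukin 1 family includes the alarm cytokines Il1a, Il1b, Il18 and Il33 and their inhibitors, and 7 of its 9 ligands and inhibitors were below 0 with a median difference of −0.44. Il1b, a main inducer of islet inflammation, had the widest spread of the 9. Its probe was at the floor of −1.06 in Nkx6.1 replicate 2 and bGAL replicates 1, 2 and 3, and it stood at 12.23, 0.66, 11.86 and −0.66 in Nkx6.1 replicates 1, 3, 4 and 5, against 4.06 and 12.23 in bGAL replicates 4 and 5. Both extremes occurred in both groups, with the same 12.23 in Nkx6.1 replicate 1 and bGAL replicate 5. Measured from the floor of −1.06, both 12.23 values lie at or near the log2 of a 10000-fold ratio (13.29). Whether log2 ratios this large, here and in Il10 and Tnfrsf21 below, reflect measured signal was not tested. The Il1b difference was 1.98 ± 3.62. It ranged from 0.077 without Nkx6.1 replicate 1 to 4.38 without bGAL replicate 5. Il1a had 2 probes that disagreed, with differences of −1.41 for the floored probe and 0.27 for the other, and a mean of −0.57 ± 0.39. Il18, which is processed by the inflammasome, stood at −0.38, −0.26, 0.06, −0.37 and 0.18 in Nkx6.1 samples, against 0.59, 0.54, 0.65, −0.06 and −0.33 in bGAL samples. The groups overlapped, and the difference of −0.44 ± 0.24 did not pass (limma adjusted p = 0.55). Il33, released by damaged cells, differed by −0.23 ± 0.29. Il1rn, the receptor antagonist that β cells also make, differed by 0.30 ± 0.20, with Nkx6.1 replicate 1 and bGAL replicate 3 sharing one value of −0.04.

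Il1r2, a decoy receptor that binds interleukin 1 without signalling, had the smallest p of the 4 receptors of the family. It was at 0.39, 2.14, 0.12, 0.55 and 0.68 in Nkx6.1 samples, against −0.12, −0.23, −0.15, −0.20 and −0.71 in bGAL samples. No values overlapped. The difference was 1.06 ± 0.36 (SE, 2.08-fold, limma unadjusted p = 0.014, adjusted p = 0.44). Within the array sets it came to 0.69 (set 1) and 1.07 (set 2). It shrank to 0.72 when Nkx6.1 replicate 2, the highest sample, was left out. The signalling receptor Il1r1 differed by 0.32 ± 0.39, with the sign turned within array set 2 (−0.62), and its partner chain Il1rap by −0.024 ± 0.22 with 5 samples at the floor.

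Of the 13 other interleukins, 12 were below 0, with a median difference of −0.45, and 11 of the 13 had a floored probe. Il15, which sustains natural killer and memory T cells, had none. It stood at −1.55, −1.64, 0.12, −0.17 and −0.17 in Nkx6.1 samples, against −0.12, 0.28, 0.21, 0.25 and 0.96 in bGAL samples. Replicates 1 and 2 made up most of the difference, and replicate 3 lay inside the bGAL range. The difference was −0.99 ± 0.40 (SE, limma unadjusted p = 0.031, adjusted p = 0.50), −1.88 within array set 1 and −0.71 within array set 2. Il6, a cytokine of the acute phase response, stood at 3.53, −3.24, 0.094, 0.23 and −0.094 in Nkx6.1 samples, against 3.90, −0.55, 3.90, −0.99 and −3.51 in bGAL samples. The 3.90 of bGAL replicates 1 and 3 is one shared value. The 2 groups covered nearly the same range, and the difference was −0.45 ± 1.64. Il4, a T helper cytokine, had a difference of −1.40 ± 0.62 (unadjusted p = 0.047, limma adjusted p = 0.51), but 4 bGAL samples and Nkx6.1 replicate 1 were at the floor of 0.48. Il4 differed by −0.88 without Nkx6.1 replicate 2. Il10, an anti-inflammatory cytokine, reached 8.26 in Nkx6.1 replicate 5 and 7.04 and 11.08 in bGAL replicates 3 and 4, with the other samples between −0.35 and 0.052, and its difference was −2.03 ± 2.58. It was −3.70 without Nkx6.1 replicate 5 and −0.17 without bGAL replicate 4.

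The 15 receptor chains of these other interleukins split into 9 above and 6 below 0 (median 0.12), and none had an unadjusted p under 0.05. Il9r had the smallest p of them, with a difference of 0.51 ± 0.25 (limma adjusted p = 0.54) and 4 samples at the floor. Il6st, the signal-transducing chain gp130 shared by Il6 and its relatives, stood at −3.51 in Nkx6.1 replicate 2 and between −0.79 and 0.47 in the other Nkx6.1 samples, against −0.30 to 0.047 in bGAL samples. Its difference of −0.65 ± 0.67 became 0.051 without that sample. Il3ra had a difference of 0.88 ± 0.56, and its sign also differed between array set 1 (1.20) and array set 2 (−0.26).

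**Figure D4:**
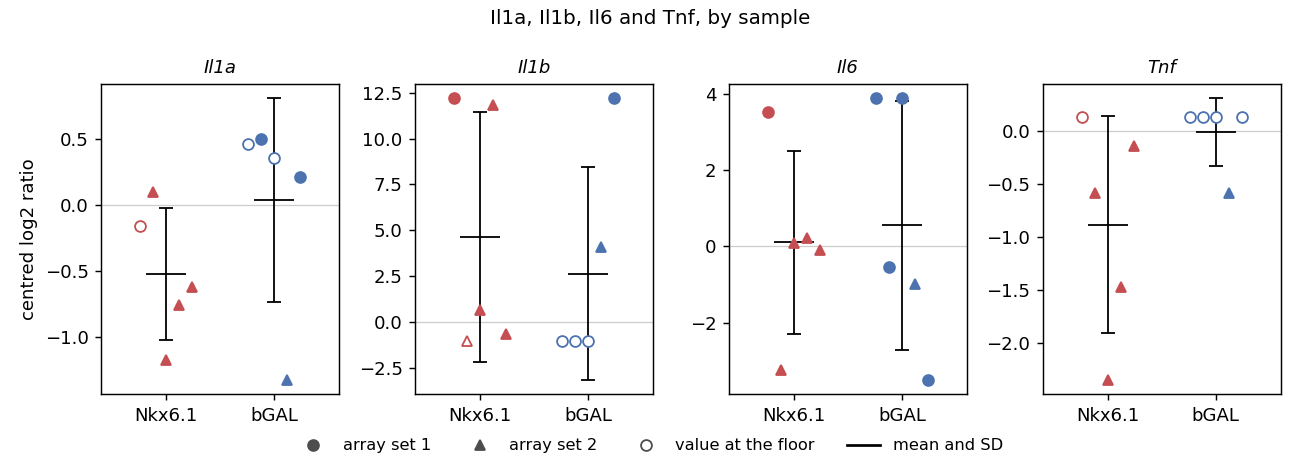
Centred log2 ratio (vertical axes) of Il1a, Il1b, Il6 and Tnf, 1 point per sample, with mean and SD over 5 samples. Open symbols have a probe at its floor, circles are array set 1 and triangles array set 2. In Tnf, 4 bGAL samples share the floor value of 0.14, and Il6 and Il1b span most of their range in both groups.

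In the TNF family, the smallest p belonged to receptors. Tnfrsf12a, the receptor for the cytokine TWEAK, had the smallest p of all 79 genes. It was at 0.33, 0.17, 0.71, 0.73 and 0.50 in Nkx6.1 samples, against −1.10, −0.87, −0.87, −0.17 and −0.26 in bGAL samples. No values overlapped, and the mean was 0.49 ± 0.24 in Nkx6.1 samples and −0.65 ± 0.42 in bGAL samples (SD, n = 5 each). The difference was 1.14 ± 0.23 (SE, 2.21-fold, limma unadjusted p = 0.00061, adjusted p = 0.14), 1.11 within array set 1 and 0.69 within array set 2. It was between 1.03 and 1.26 when any one sample was left out. Tnfrsf17, a survival receptor of plasma cells, stood at 0.97, −0.15, 0.15, 0.88 and 1.11 in Nkx6.1 samples, against −3.35, −5.23, −2.65, 0.54 and −1.17 in bGAL samples. bGAL replicate 4 lay inside the Nkx6.1 range. The difference of 2.97 ± 0.92 (SE, limma unadjusted p = 0.0094, adjusted p = 0.39) was 4.07 in array set 1 alone and −0.04 in array set 2 alone, where the only control was bGAL replicate 4. Tnfrsf11b, the soluble decoy receptor osteoprotegerin, differed by −0.46 ± 0.53. Tnfrsf21, a death receptor, had 2 probes with differences of 5.38 and 0.12, and the first held values of 13.28 to 15.29 in 4 samples (Nkx6.1 replicates 2, 4 and 5 and bGAL replicate 1) and lay at or near its floor in the others. The 13.29 and 13.28 of Nkx6.1 replicates 4 and 5 are at or near the log2 of a 10000-fold ratio (13.29).

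Tnf itself, a central cytokine of macrophages, was at its floor of 0.14 in bGAL replicates 1, 2, 3 and 5 and in Nkx6.1 replicate 1. Off the floor it stood at −0.58, −2.35, −1.47 and −0.14 in Nkx6.1 replicates 2 to 5, against −0.58 in bGAL replicate 4. The difference was −0.88 ± 0.45 (SE, limma adjusted p = 0.54) and −0.56 within array set 2. It shrank to −0.51 without Nkx6.1 replicate 3 and to −0.28 with a term for the array set. Of the 5 TNF family ligands tested, only Tnfsf18 was above 0 (0.88 ± 0.45, limma adjusted p = 0.55, 3 bGAL values).

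Direction within the array sets separated the genes with no floored probe into 3 groups. Of 32 such genes with values for both groups in both sets, 12 were higher with the Nkx6.1 virus in both, 6 were lower in both, and 14 differed in sign. That is 37.5% and 18.8%, beside 26.8% and 32.9% of all 5740 genes of this kind. The 12 were Cxcl1, Cxcl2, Ccl2, Ccl11, Ccr4, Cxcr1, Il1r2, Il1rn, Il6, Il11ra1, Tnfrsf12a and Tnfsf18, with Il6 among them although its difference over all samples was −0.45. The 6 were Il15, Il18, Il18bp, Il33, Il13ra1 and Tnfsf13. Membership went by sign alone, and some differences were near 0. Within array set 2, Il18 had −0.04 and Il1rn 0.066, and Il11ra1 had 0.05 and 0.12 within array sets 1 and 2. Among the 14, Il13ra2 had −0.0098 and Tnfrsf17 −0.04 within array set 2. Each set holds only 1 sample of one of the groups, so these are single-sample contrasts without a test. In 7 of the 32 genes, Nkx6.1 replicate 1 held the same value as bGAL replicate 3. Ccl11 and Il1rn of the 12 and Il13ra1 and Il18bp of the 6 were among them. A value shared by 2 samples does not count as a floor here, and whether it is one was not tested.

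**Figure D5:**
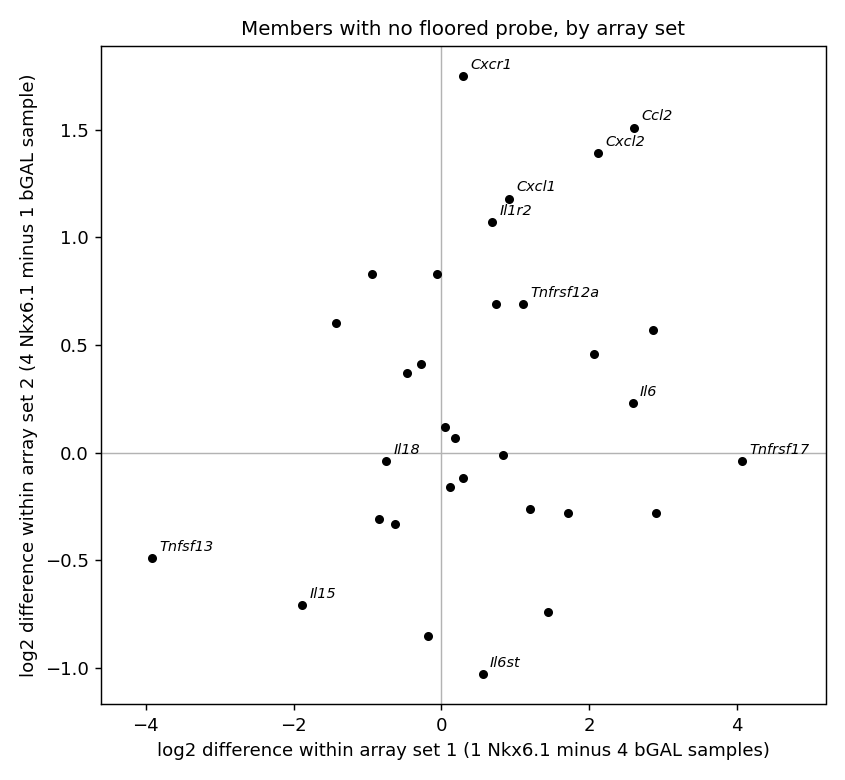
Log2 difference within array set 1 (horizontal axis, 1 Nkx6.1 minus 4 bGAL samples) against that within array set 2 (vertical axis, 4 Nkx6.1 samples minus 1 bGAL sample) for the 32 genes with no floored probe. Cxcl1, Cxcl2, Ccl2, Il1r2 and Tnfrsf12a lie well to the upper right, and Tnfrsf17 lies on the horizontal line. In 7 of the 32 genes, Nkx6.1 replicate 1 and bGAL replicate 3 share 1 value.

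For floored genes the floor gives a fixed point, taken here as a ratio of 1 to the reference, so the samples of array set 2 can be placed above or below it. Of 45 floored probes with 4 or 5 of these samples off the floor, 22 had all of them below and 10 all of them above, with 13 mixed. If the ratio runs the other way, 10 lay below and 22 above. As deposited, the 22 below belonged to Ccl4, Ccl20, Ccl28, Ccr2, Ccr6, Ccr8, Cxcr3, Il1a, Il4, Il5, Il5ra, Il12a, Il16, Il17rb, Il17re, Il18r1, Il36a, Il36rn, Tnf, Tnfrsf4, Tnfrsf8 and Tnfsf11. Il5, an eosinophil cytokine, stood at −2.94, −3.08 and −3.35 from the floor in Nkx6.1 replicates 3, 4 and 5, and at −6.69 in bGAL replicate 4. The 10 above belonged to Ccl27, Il1b, Il1r1, Il7, Il7r, Il9, Il9r, Il13, Tnfrsf14 and Tnfrsf21. Il7, a growth factor for lymphocytes made by stromal cells, was 1.19, 1.22 and 0.70 above it in Nkx6.1 replicates 3, 4 and 5, and 1.66 above it in bGAL replicate 4. In Tnfrsf21, Nkx6.1 replicate 3 counted as above the floor by only 0.00098, and Nkx6.1 replicates 2, 4 and 5 by 13.28 to 15.29. These positions set islets of both groups against the reference RNA in an inferred direction and are no comparison of the viruses.

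The signalling genes of these cytokines held no call. Of 35 measured (kinases, adaptors, NF-κB and STAT factors), 14 were above and 21 below 0, with a median difference of −0.099, and none passed the threshold (limma adjusted p). At an unadjusted p under 0.05, 1 was higher and 2 were lower, near the 4.54% and 5.1% of all genes. The smallest p belonged to Irak1, a kinase of interleukin 1 signalling, with −0.63 ± 0.15 (adjusted p = 0.24) and no overlap between groups. Jak1 followed with −0.93 ± 0.37, the G protein subunit Gnai2 with 1.16 ± 0.49 and the NF-κB subunit Rela with −0.59 ± 0.29. Among 24 related ligands and receptors that the symbols do not catch, 14 were above 0 and none passed. The neurotrophic cytokine Cntf differed by −0.94 ± 0.23 (adjusted p = 0.24), the platelet chemokine Pf4 by −0.67, the membrane chemokine Cx3cl1 by 2.36 ± 1.03 and the macrophage receptor Csf1r by −0.99.

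Of 19 genes known to be induced by these cytokines, 9 were above 0 and none passed, with a median of −0.13. Icam1, an adhesion molecule that binds leukocytes, came closest. It stood at 1.03, 2.53, 0.60, 1.22 and 0.71 in Nkx6.1 samples, against −0.61, −0.65, −1.26, −0.60 and −1.17 in bGAL samples, with no overlap. The difference was 2.07 ± 0.36 (SE, limma adjusted p = 0.083), 1.95 within array set 1 and 1.86 within array set 2. Leaving out Nkx6.1 replicate 2 gave 1.74 with an adjusted p of 0.016, and it also passed with quantile (2.28, adjusted p = 0.027) or scale normalisation (1.98, adjusted p = 0.024). Of all genes, 0.361%, 0.271% and 0.231% passed in these 3 settings, in that order. The acute phase gene Hp had a difference of −1.23 ± 0.51, the endothelial adhesion gene Sele 0.48 ± 0.20 and the lipocalin gene Lcn2 0.60 ± 0.31.

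Macrophages carry many of these receptors and make many of these ligands, and their markers are given for that reason. Of 12 macrophage and myeloid markers, 10 were lower with the Nkx6.1 virus (median difference −0.91), 3 of them at an unadjusted p under 0.05 (5.1% of all genes were lower at such a p) and none past the threshold. With array weights C1qb, Csf1r and Tyrobp passed, beside 5.79% of all genes. The mean of the list per sample ran from −0.77 to −0.14 in Nkx6.1 samples, against 0.12 to 1.55 in bGAL samples. Single genes made much of some means. The 1.55 of bGAL replicate 3 held Cd163 at 15.48, with no other marker there above 1.39. The −0.58 of Nkx6.1 replicate 2 held Cd53 at −6.55, with no other marker there below −2.1. C1qb, a complement gene of macrophages, differed by −1.45 ± 0.53, Adgre1 by −0.83 and Cd53 by −2.78. Cxcl1, Cxcl2, Ccl2, Cxcr1 and Il1r2 had positive differences beside this negative one, while those of Tnf, Il15 and Il18 were negative too, and the part of these cells in either direction was not tested. In pooled islets, fewer cells of a type and less RNA per cell cannot be told apart. The 8 T and B cell markers had a median of −0.067, and list means per sample overlapped between groups (−0.71 to 0.98 in Nkx6.1 samples, −0.54 to 1.19 in bGAL samples). The medians were −0.11 for 3 endothelial, −0.57 for 7 stellate and fibroblast, 0.68 for 6 acinar, −0.06 for 3 duct and 0.32 for 11 islet endocrine markers, and none of these markers passed. With array weights the stellate marker Pdgfra and the endocrine gene Sst passed, and Sst also passed when Nkx6.1 replicate 2 was left out (−1.81, limma adjusted p = 0.011).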

How the data were processed

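The series holds 5 Nkx6.1 and 5 bGAL samples, grouped and numbered by their titles. The deposited values are log2 ratios from two-colour arrays, with islet RNA in Cy5 and a common reference in Cy3, per the labels, after 2 rounds of RNA amplification. How background, dye bias and dim spots were treated is not stated in the labels used here. Probes were centred: all 17744 with 10 values had their median at 0 (tolerance 0.001). The base of the logarithm and the direction are inferred, and columns had medians of −0.0028 to 0. Pearson's r between arrays was −0.11 to 0.36.

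After leaving out 22 control probes, 15807 of 26962 probes had 1 gene symbol, 0 had several and 11155 had none. Symbols were current in RefSeq (GRCr8) for 12034 probes, updated for 3713 and kept for 60. Probes of a gene were averaged. Nkx6.1 minus bGAL was fitted with limma 3.58.1 in R 4.3.3 (lmFit, eBayes, two-sided) over all genes with at least 3 values per group, with Benjamini-Hochberg adjustment. Single genes also had an exact permutation test (scipy 1.17.1). Array sets split samples at 20% of probes without a value. The fit was tested on simulated data.

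The members, the gene lists and the rules were chosen with earlier results of these data known. Named are genes with non-overlapping groups, the 12 with the smallest p, 22 measured genes fixed by name and the 4 with the smallest p of each other list. Other genes named for a role, a shared value or a direction were chosen after their values were seen. Leaving out floored values was added after seeing the data. Replicate numbers did not pair the samples: deviations of samples with the same number correlated at 0.17, −0.01, −0.1, 0.18 and −0.03 over 9617 genes, and the labels give them no shared origin. All columns of sample values were used.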

Additional observations from a re-analysis of the deposited data

Results flagged for a closer look

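Samples far from the rest of their group were sought among the named genes with 5 values in a group. Of 52 such groups 10 held one. Among the 30 groups with no value at a floor there were 2, where chance gives about 1 in 20. Both were in Il1r2: Nkx6.1 replicate 2 stood at 2.14 where its group otherwise spanned 0.12 to 0.68, and bGAL replicate 5 at −0.71 where its group otherwise spanned −0.23 to −0.12.

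The other 8 lay in groups that hold floored values. Values tied at the floor set the other samples apart by construction, so the chance rate does not apply to them. In 6 of them the sample was bGAL replicate 4, the only control of array set 2, and it was the lowest of its group: −0.69 for Il4, −0.58 for Tnf, −1.33 for Il1a, −0.90 for Ccr2, −4.12 for Ccl20 and −0.44 for Il1rap. In Il9r, bGAL replicate 1 was lowest at −0.93, and in Il10, Nkx6.1 replicate 5 was highest at 8.26, with the rest of its group at −0.35 to 0.052.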

How the results depend on the processing

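None of the 79 genes passed under any alternative but array weights, which called 4 (Ccl2, Cxcr1, Tnfrsf12a and Tnfrsf17, with adjusted p = 0.0042 for Tnfrsf12a) beside 577 of all genes (5.79%), with Nkx6.1 replicate 2 weighted at 0.105. The highest weights went to Nkx6.1 samples of array set 2 and bGAL samples of array set 1. Array weights also called 4 signalling genes, 2 related ligands and receptors, 2 cytokine targets and, among the cell markers, C1qb, Csf1r, Tyrobp, Pdgfra and Sst. Of the targets, 1 (Icam1) passed with quantile normalisation, with scale normalisation and without Nkx6.1 replicate 2 (range 0 to 1 over the samples left out), where 0.271%, 0.231% and 0.361% of all genes passed. Blocking on the replicate number left 0 of 9972 genes called by limma, and 12 of the 79 had an unadjusted p under 0.05, beside 8.13% of all genes. A shared number is no pairing here.

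The family's median difference was −0.1, and it became 0.15 with the array set in the model, −0.20 with array weights, 0.14 with floored values set to missing, 0.27 without floored probes, −0.039 with the most variable probe, −0.0064 with quantile and −0.058 with scale normalisation, −0.044 with the replicate block and −0.069 without probes above 8 in size. It was 0 within array set 1, 0.25 within array set 2 and −0.17 to 0.0058 when a sample was left out.

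Of the 27 named genes, 17 kept their sign in every refit (contrasts within an array set aside) and 10 did not. In the model with the array set, signs turned for Ccr6 (0.037), Il1a (0.086), Tnfrsf11b (0.091), Il1r1 (−0.23), Cxcr4 (−0.048), Il6 (1.41), Ccr2 (0.31), Ccl20 (1.47) and Il1rap (0.15). It also turned for Il1a without floored probes (0.27), for Cxcr4 with scale normalisation (−0.0015), for Il6 with quantile normalisation (0.53) and for Ccl20 with quantile (0.14) and scale normalisation (0.0069). Leaving out a sample gave −0.94 to 0.051 for Il6st, −0.097 to 0.31 for Cxcr4, −1.46 to 0.39 for Il6, −0.22 to 0.051 for Ccr2, −0.98 to 0.17 for Ccl20 and −0.18 to 0.074 for Il1rap. In that model the differences were otherwise 0.90 for Tnfrsf12a, 1.76 for Cxcl2, 1.05 for Cxcl1, 2.06 for Ccl2, 1.02 for Cxcr1 and 0.88 for Il1r2. The causes of these shifts were not tested. The floor limits the comparison: 46 of the 79 genes had a probe at it in 3 or more samples, and signal over background was not analysed here.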

Other observations

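Cxcl9, an interferon-induced chemokine that attracts T cells, was among the 27 genes with too few values. It stood at 1.58, 1.72, 1.33 and 0.90 in Nkx6.1 replicates 2 to 5, against −0.73 in bGAL replicate 4, the only control with a value. Ccl22, a chemokine of dendritic cells and macrophages, had 0, 1.58, 0.19 and 3.21 in the same Nkx6.1 samples, against −1.11 in bGAL replicate 4. Il12rb2, an interleukin receptor chain of T helper cells, had −0.61, −0.26 and −1.09 in Nkx6.1 replicates 3 to 5, against −3.91 in bGAL replicate 4. Tnfrsf1b, a TNF receptor, had 0, 0.056, 0.0048 and −2.02 in Nkx6.1 replicates 2 to 5, against −2.17 in bGAL replicate 4. These genes were picked after their values were seen, and with 1 control value they fell short of the 3 values per group required and were not tested.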
